A study of Rattus norvegicus with 9 samples.

Results

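Genes of the mitochondrial carrier family, named Slc25 together with the uncoupling protein genes Ucp2 and Ucp3, were followed across kidneys of 9 rats. They were taken by symbol from the deposited gene table and kept where at least 3 libraries held at least 1 CPM (the reads of a gene scaled to a fixed total of reads per library). Of 48 such symbols among 36267 features, 41 passed, and 16731 features passed in all. Every one of the 41 genes was at or above 1 CPM in all 9 libraries, and the lowest value was 1.97 CPM. The rule left Slc25a2 just inside, at 1.97 to 4.01 CPM, and Slc25a27 just outside, at 0.343 to 1.31 CPM with 2 libraries over the limit.

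Each group held 3 rats of 180 to 200 g, whose strain, sex and age are not stated in the labels. Rats of the icariin group (ICA) were given icariin, a flavonoid glycoside of Epimedium plants, at 100 mg/kg into the stomach daily for 3 days and then went through the contrast protocol. That protocol consisted of 200 mg/kg of the loop diuretic furosemide by the same route, 6 h of dehydration, and iopromide, an iodinated X-ray contrast medium with 370 mg I/mL, at 15 mL/kg into a vein. Rats with contrast-induced acute kidney injury (CIAKI) went through the protocol alone. Control rats (CON) had no treatment, so neither furosemide nor dehydration alone has a group of its own, and neither has icariin without contrast. The interval between contrast and removal of the kidney is not stated in the labels.

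Summed over the features of the gene table, libraries held 64380578 to 90398405 reads. Markers of kidney tubule were abundant, while the hepatocyte markers Alb and Apoa1 summed to at most 0.493 CPM and the skeletal muscle markers to at most 0.839 CPM. The 10 proximal tubule markers summed to 21871 to 23633 CPM in ICA, 9507 to 13007 CPM in CIAKI and 22089 to 25496 CPM in CON kidneys. Of these, 7 were lower in CIAKI than in CON, against 20.5% of all features tested. Also lower were 3 of 3 podocyte, 2 of 2 distal tubule and 2 of 2 endothelial markers tested. The same held for 2 of 3 intercalated cell and 2 of 5 thick ascending limb markers. Of 3 principal cell markers, 2 were higher and 1 was lower. In whole-kidney RNA, fewer cells of a type and less RNA per cell cannot be told apart. The part of these differences in the carrier genes that follow was not tested. Transcripts of the mitochondrial genome took 1.65% of the reads in ICA 2 and 3.86% to 5.71% in the 8 other libraries.

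Mitochondrial carriers are small proteins, most of them of the inner mitochondrial membrane, that move nucleotides, phosphate, carboxylates, amino acids, acylcarnitines, cofactors and metals between cytosol and matrix. All are encoded in the nucleus. The kidney tubule, and the proximal tubule above all, depends on mitochondria for the ATP that drives reabsorption, and uses the carriers also for ammonium formation, gluconeogenesis and fatty acid oxidation.

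In CIAKI kidneys, 11 carrier genes were higher and 9 lower than in CON, and 21 did not pass the test (limma on log2(CPM + 1), adjusted p below 0.05 over all features). Over all features tested, 20.8% were called higher and 20.5% lower in this comparison, and 41.3% in either direction, against 48.8% of the carriers. Their median log2 fold change was 0.05, against 0.00 for all features, and their median absolute log2 fold change was 0.33, the same as for all features. The family as a whole thus differed in CIAKI about as often and as much as the features tested did. Changes of at least 2-fold were called for 3 carriers that were higher (Slc25a22, Slc25a34 and Slc25a24) and 4 that were lower (Slc25a23, Slc25a10, Slc25a45 and Slc25a30), while 3.35% of features were that much higher and 6.53% that much lower. Without CON 3, the count of higher carriers was 7.

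Summed over the 41 genes, carriers stood at 4648 ± 171 CPM in ICA, 3661 ± 146 CPM in CIAKI and 4267 ± 123 CPM in CON kidneys (SD, n = 3 each). The groups did not overlap in this sum, and each pair gave p = 0.1 in an exact two-sided permutation test, the smallest p that 3 against 3 libraries allow. The sum in CIAKI was 0.858 times that in CON. Genes with many reads weigh most in the sum, with Slc25a3, Slc25a4 and Slc25a5 at 1821 of 4262 CPM in CON 1. It does not show a fall across the family, in which 11 genes were higher and 9 lower.

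**Figure D1:**
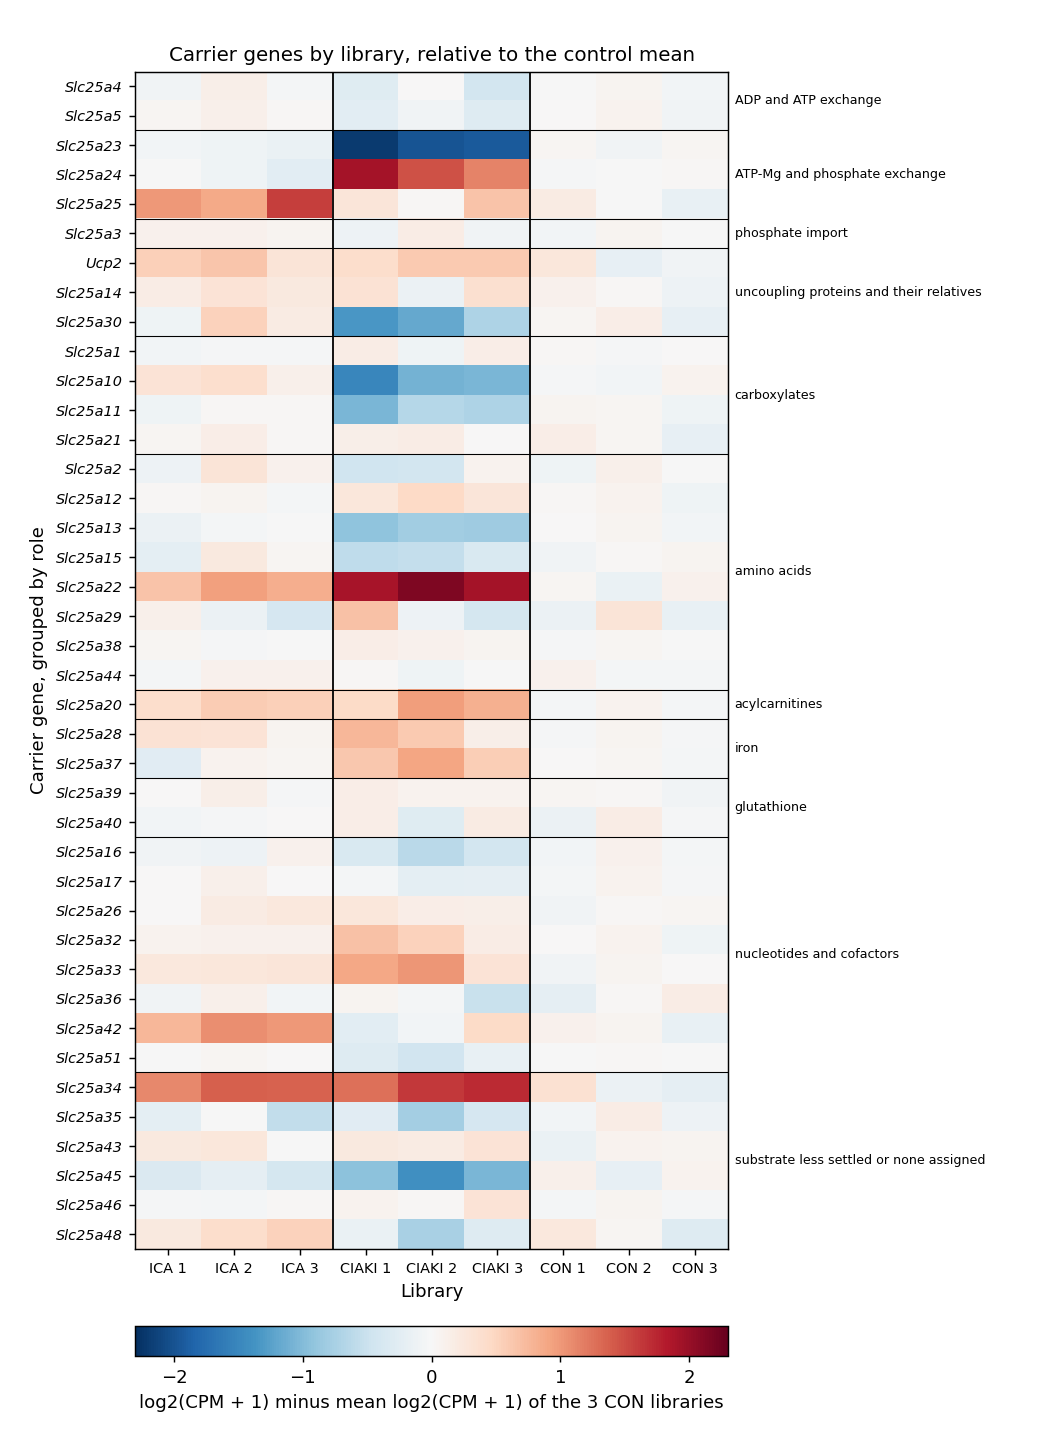
Each cell is 1 library's log2(CPM + 1) of 1 of 40 carrier genes minus the mean of the 3 CON libraries, with genes in rows by role and libraries in columns by group (ICA, CIAKI, CON). The 3 CIAKI columns hold the darkest cells, blue for Slc25a23 and red for Slc25a22. Slc25a42 and Slc25a25 are red in the 3 ICA columns, and Slc25a34 and Slc25a22 are red in both the ICA and the CIAKI columns.

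The carriers that exchange ATP-Mg for phosphate, and so set the adenine nucleotide pool of the matrix under control of calcium, moved in different directions. Slc25a23 had 138, 135 and 130 CPM in ICA, 30.6, 35.8 and 36.9 CPM in CIAKI, and 148, 136 and 149 CPM in CON kidneys. The CIAKI libraries lay far below all others, and ICA and CON overlapped. The log2 fold change of Slc25a23 was -2.04 in CIAKI against CON (SE 0.08, adjusted p = 5.1e-06), 1.94 in ICA against CIAKI (SE 0.08, adjusted p = 5.9e-06) and -0.10 in ICA against CON (adjusted p = 0.79). All fold changes come from log2(CPM + 1), and the added 1 CPM makes those of genes with low values too small. Slc25a24, which encodes another member of this group, had 9.93, 9.17 and 8.21 CPM in ICA, 40, 29.2 and 23.1 CPM in CIAKI, and 9.69, 9.92 and 10.2 CPM in CON kidneys. Here the CIAKI libraries were all above the others, with a wide spread among themselves. Its log2 fold change was 1.51 in CIAKI against CON (SE 0.18, adjusted p = 0.00031), -1.62 in ICA against CIAKI (adjusted p = 0.00026) and -0.12 in ICA against CON (adjusted p = 0.91).

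Slc25a25, the remaining member of this group above the filter, was highest in ICA kidneys. It had 195, 179 and 295 CPM in ICA, 118, 99.4 and 154 CPM in CIAKI, and 111, 96.6 and 86.4 CPM in CON kidneys. All ICA libraries lay above all CIAKI libraries, which overlapped with CON. On the log2 scale, Slc25a25 stood at 0.83 in ICA against CIAKI (SE 0.21, adjusted p = 0.013) and 0.32 in CIAKI against CON (adjusted p = 0.25). Against CON, ICA stood at 1.15 (SE 0.21), with an adjusted p of 0.054 that missed the threshold. Slc25a25 was called there in 4 of 21 alternative settings of the analysis, whose adjusted p-values ran from 5.5e-05 (DESeq2) to 0.21. Its values are given because of this near call, a choice made after they were seen.

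Within each library, the log2 ratio of CPM + 1 of Slc25a23 to that of Slc25a24 was 3.75 ± 0.08 in ICA, 0.19 ± 0.52 in CIAKI and 3.73 ± 0.08 in CON kidneys (SD, n = 3 each). The difference was -3.54 between CIAKI and CON, with p = 0.1 in the exact permutation test. The ratio is compared here between groups only, since CPM values are not per length and set no order between genes.

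Sequences upstream of genes are shown for this group, because its members moved apart, and for Slc25a33, which shared a motif with Slc25a25. They are the 250 bases before the start of each gene, from RefSeq (build GRCr8), matched by symbol. Capitals mark matches, on either strand, to the motifs searched. These were TGACGTCA (the cAMP response element), CACGTG (an E-box), CCAAT, TCAAGGTCA (an extended nuclear receptor half-site), AGGTCA repeated after any 1 base (a direct repeat bound by PPAR dimers) and GCGC followed by any 1 base and TGCGC (NRF1).
Slc25a23, chr9:1985366-1985615, minus strand: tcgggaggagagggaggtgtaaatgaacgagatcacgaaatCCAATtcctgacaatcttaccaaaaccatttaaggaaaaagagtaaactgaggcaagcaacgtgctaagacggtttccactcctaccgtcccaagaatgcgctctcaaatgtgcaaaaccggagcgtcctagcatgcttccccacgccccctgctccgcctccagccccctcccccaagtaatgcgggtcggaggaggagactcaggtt
Slc25a24, chr2:199449175-199449424, plus strand: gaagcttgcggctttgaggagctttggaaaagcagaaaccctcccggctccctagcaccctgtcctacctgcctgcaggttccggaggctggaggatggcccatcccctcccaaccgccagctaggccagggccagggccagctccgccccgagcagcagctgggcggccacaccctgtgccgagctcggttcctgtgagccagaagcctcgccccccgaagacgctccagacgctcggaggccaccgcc
Slc25a25, chr3:36116582-36116831, minus strand: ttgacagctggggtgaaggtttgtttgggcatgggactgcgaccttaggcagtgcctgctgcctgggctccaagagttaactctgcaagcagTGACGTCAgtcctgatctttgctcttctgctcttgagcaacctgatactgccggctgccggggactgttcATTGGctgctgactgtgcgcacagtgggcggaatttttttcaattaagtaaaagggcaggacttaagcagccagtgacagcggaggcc
Slc25a33, chr5:165502974-165503223, minus strand: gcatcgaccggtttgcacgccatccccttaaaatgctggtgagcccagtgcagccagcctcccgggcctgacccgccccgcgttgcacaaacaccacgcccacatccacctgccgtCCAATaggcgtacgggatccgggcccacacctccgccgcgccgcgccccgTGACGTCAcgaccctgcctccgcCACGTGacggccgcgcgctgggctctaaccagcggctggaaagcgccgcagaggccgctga
The table held a promoter for 34 of the 41 genes, and each was searched from 250 bases before to 50 after the start. TGACGTCA was found in 2 of the 34, Slc25a25 at position -158 and Slc25a33 at -84, and in 1.83% of 33469 promoters. CACGTG was found in 3 of 34 against 6.42% of promoters, CCAAT in 19 of 34 against 37.5%, and the NRF1 motif in 1 of 34 against 4.25%. No match was found among the 34 for TCAAGGTCA, present in 0.433% of promoters, or for the PPAR repeat, present in 0.0538%. None of the printed matches overlapped another. A match is a run of letters and not a site shown to be bound, and the window of Slc25a24 held none.

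The carriers that exchange matrix ATP for cytosolic ADP, Slc25a4 and Slc25a5 (ANT1 and ANT2), and the phosphate carrier Slc25a3 feed ATP synthase and export its product. Slc25a5 had 929, 974 and 922 CPM in ICA, 764, 848 and 734 CPM in CIAKI, and 905, 954 and 848 CPM in CON kidneys. CIAKI libraries were lowest, with 1 of them level with the lowest CON library. Slc25a5 was 0.27 higher on the log2 scale in ICA than in CIAKI (SE 0.09, adjusted p = 0.034), and CIAKI against CON stood at -0.21 (adjusted p = 0.082). The call in ICA against CIAKI ended in 9 of 21 alternatives, among them leaving out any ICA library, CIAKI 1, CIAKI 3 or CON 1 (adjusted p up to 0.1) and quantile normalization (adjusted p = 0.15). Slc25a5 has many processed copies in the genome, and how reads shared with them were counted is not known.

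Slc25a4 had 214, 249 and 221 CPM in ICA, 188, 228 and 170 CPM in CIAKI, and 227, 238 and 218 CPM in CON kidneys. The 3 groups overlapped, with log2 fold changes of -0.23 in CIAKI against CON and 0.23 in ICA against CIAKI (adjusted p = 0.12 for each). The ratio of Slc25a4 to Slc25a5 was -2.04 ± 0.07 in ICA, -2.00 ± 0.10 in CIAKI and -1.98 ± 0.02 in CON kidneys on the log2 scale (SD, n = 3 each). Slc25a3 had 771, 765 and 744 CPM in ICA, 659, 809 and 681 CPM in CIAKI, and 688, 748 and 714 CPM in CON kidneys. Its CIAKI libraries spanned the CON range, and its log2 fold change in CIAKI against CON was -0.01 (SE 0.09, adjusted p = 0.97).

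Among the carboxylate carriers, 2 of 4 were lower in CIAKI than in CON. Slc25a10, the carrier that exchanges malate or succinate for phosphate, had 399, 418 and 348 CPM in ICA, 112, 151 and 154 CPM in CIAKI, and 315, 307 and 341 CPM in CON kidneys. CIAKI libraries lay below the others, and every ICA library lay above every CON library. The log2 fold change of Slc25a10 was -1.21 in CIAKI against CON (SE 0.13, adjusted p = 0.00016), 1.49 in ICA against CIAKI (SE 0.13, adjusted p = 9e-05) and 0.27 in ICA against CON (adjusted p = 0.52). Slc25a11, the oxoglutarate carrier of the malate-aspartate shuttle, had 172, 190 and 189 CPM in ICA, 88.8, 117 and 113 CPM in CIAKI, and 194, 191 and 172 CPM in CON kidneys. All CIAKI values were lower than those of both other groups. Its log2 fold change was -0.81 in CIAKI against CON (SE 0.11, adjusted p = 0.00053) and 0.79 in ICA against CIAKI (adjusted p = 0.00068). Slc25a1, which exports citrate for fatty acid synthesis, stood at 0.08 and Slc25a21, the carrier of oxoadipate from lysine breakdown, at 0.10 on the log2 scale in CIAKI against CON (adjusted p = 0.44 and 0.6).

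**Figure D2:**
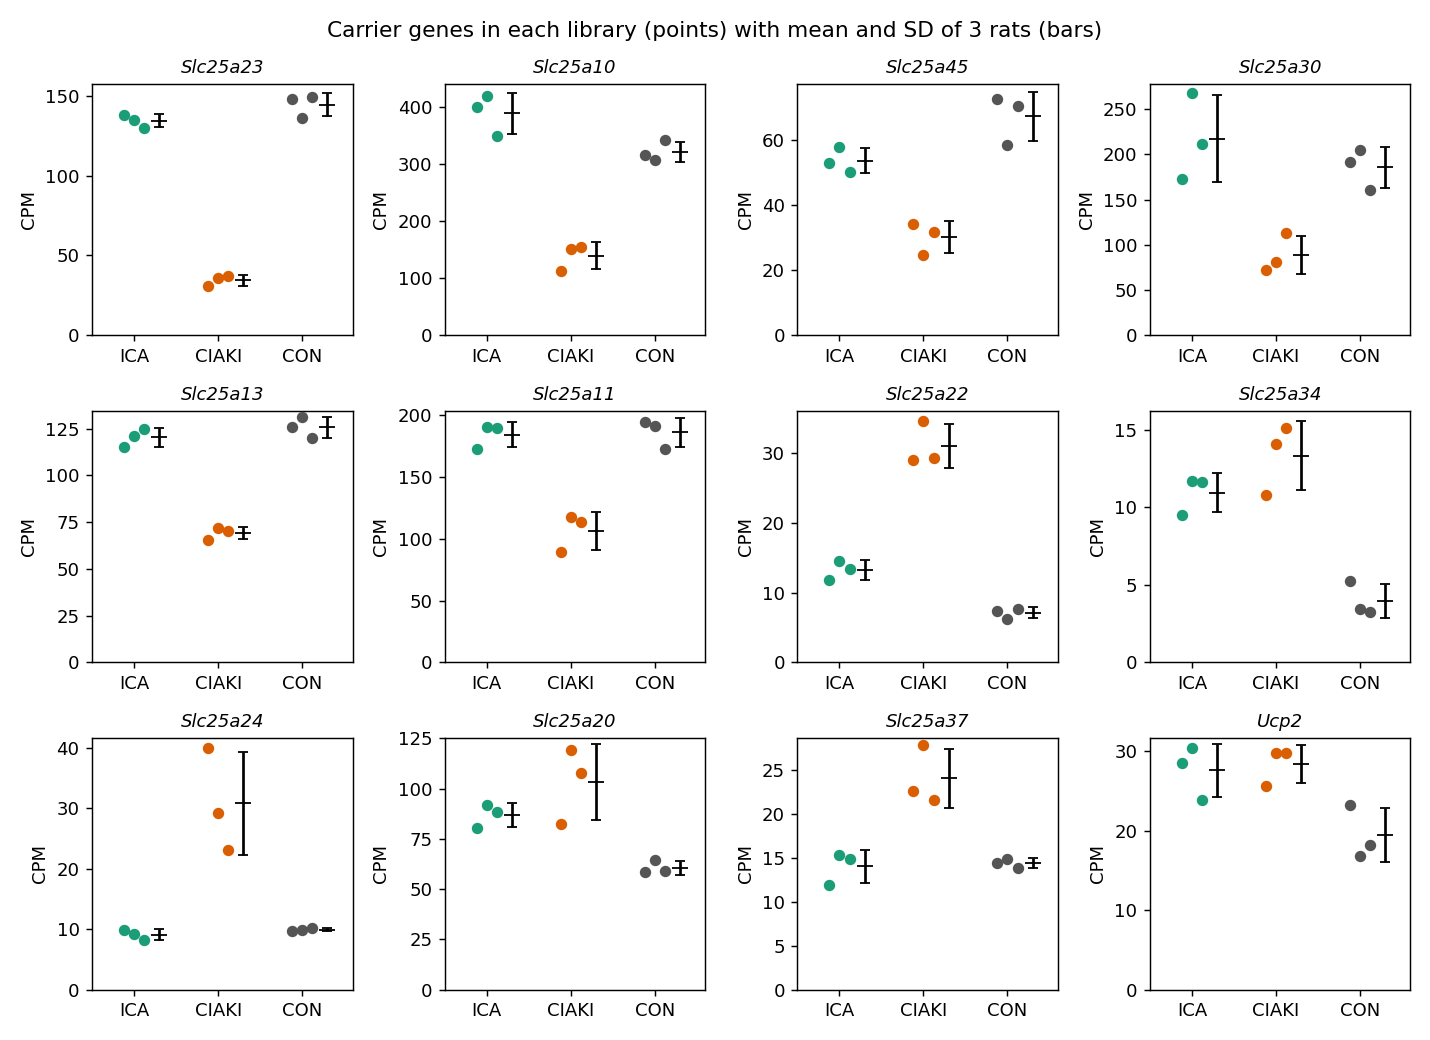
Points are CPM in each library for 12 carrier genes, by group (ICA, CIAKI, CON), and bars are the mean and SD of 3 rats. Slc25a23, Slc25a10, Slc25a45, Slc25a30, Slc25a13 and Slc25a11 are lowest in CIAKI, Slc25a22, Slc25a24 and Slc25a37 are highest there, and Slc25a34 is low in CON alone, at 3.24 to 5.22 CPM.

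Of 8 amino acid carriers, 2 were higher, 2 lower and 4 not called in CIAKI against CON. Slc25a22, which brings glutamate into mitochondria, was the carrier with the largest rise. It had 11.8, 14.6 and 13.4 CPM in ICA, 29.1, 34.7 and 29.4 CPM in CIAKI, and 7.41, 6.26 and 7.72 CPM in CON kidneys. No library of a group overlapped another group, with ICA between the others. The log2 fold change of Slc25a22 was 1.98 in CIAKI against CON (SE 0.12, adjusted p = 2.3e-05), -1.17 in ICA against CIAKI (SE 0.12, adjusted p = 0.00023) and 0.81 in ICA against CON (SE 0.12, adjusted p = 0.028).

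The aspartate-glutamate carriers, calcium-regulated parts of the malate-aspartate shuttle, went in opposite directions. Slc25a13 (citrin) had 115, 121 and 125 CPM in ICA, 65.3, 71.8 and 70.4 CPM in CIAKI, and 126, 131 and 120 CPM in CON kidneys. CIAKI values stood well apart, and its log2 fold change was -0.85 in CIAKI against CON (SE 0.07, adjusted p = 5.1e-05) and 0.79 in ICA against CIAKI (adjusted p = 8.9e-05). Slc25a12 (aralar) stood at 30.7 ± 1.32 CPM in ICA, 38.5 ± 3.22 CPM in CIAKI and 30.4 ± 2.06 CPM in CON kidneys (SD, n = 3 each). Its log2 fold change was 0.33 in CIAKI against CON (adjusted p = 0.015) and -0.32 in ICA against CIAKI (adjusted p = 0.019). The first call was lost without CON 3 (adjusted p = 0.059), and the second without CIAKI 2 (0.051) or ICA 3 (0.057). In log2 units, the ratio of Slc25a12 to Slc25a13 was -1.93 ± 0.11 in ICA, -0.83 ± 0.08 in CIAKI and -2.01 ± 0.04 in CON kidneys (SD, n = 3 each). It was 1.18 higher in CIAKI than in CON (exact permutation p = 0.1).

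Slc25a15, which exchanges ornithine and citrulline, fell to 137 ± 12.6 CPM in CIAKI, against 194 ± 9.93 CPM in CON kidneys (SD, n = 3 each). The change was -0.50 on the log2 scale (adjusted p = 0.0077). ICA kidneys had 198 ± 30.4 CPM (0.51 against CIAKI, adjusted p = 0.0073). Slc25a2, its close relative, stood at -0.27 in CIAKI against CON (adjusted p = 0.28). The basic amino acid carrier Slc25a29 (0.05), the glycine carrier Slc25a38 (0.10) and the branched-chain amino acid carrier Slc25a44 (-0.03) were not called either.

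Slc25a20 encodes the exchanger of acylcarnitine for carnitine, the inner membrane step by which long-chain fatty acids reach beta-oxidation. It had 80.4, 91.7 and 88.4 CPM in ICA, 82.2, 119 and 108 CPM in CIAKI, and 58.4, 64.4 and 58.9 CPM in CON kidneys. Both contrast groups lay above CON and overlapped with each other. On the log2 scale, Slc25a20 stood at 0.74 in CIAKI against CON (SE 0.13, adjusted p = 0.0018), -0.23 in ICA against CIAKI (adjusted p = 0.18) and 0.51 in ICA against CON (SE 0.13, adjusted p = 0.15). Among the other 6 genes of the carnitine shuttle, 4 were higher and none lower in CIAKI than in CON, where 20.8% of all features were called higher. In ICA against CON, 2 of the 6 were higher, where 0.4% of all features were called higher. These were Cpt1a and Cpt2, which form acylcarnitines at the outer membrane and take them apart in the matrix. Cpt1a had 518, 583 and 555 CPM in ICA, 648, 920 and 744 CPM in CIAKI, and 309, 325 and 307 CPM in CON kidneys. Its ICA and CIAKI libraries were all above CON (ICA against CON 0.81, SE 0.12, adjusted p = 0.027). Cpt2 had 77.9, 95.2 and 88.1 CPM in ICA, 100, 143 and 121 CPM in CIAKI, and 46.7, 50.6 and 48.8 CPM in CON kidneys (ICA against CON 0.82, SE 0.12, adjusted p = 0.028). Both were lower in ICA than in CIAKI, at -0.47 for Cpt1a and -0.46 for Cpt2 (adjusted p = 0.013 and 0.017). Whether calls of partner genes held in alternative settings was not examined. Over all features, 105 were called in ICA against CON, and 31 when CON 2, CON 3 or ICA 2 was left out. The carriers Slc25a34 and Slc25a22, at adjusted p-values of 0.027 and 0.028 in ICA against CON, lost their calls in each of these. Slc22a5, the carnitine importer of the cell surface, picked after its values were seen, stood at -0.55 in CIAKI against CON (adjusted p = 0.057) and 1.10 in ICA against CIAKI (adjusted p = 0.0031). Crot, which makes carnitine esters in peroxisomes, stood at 0.40 in CIAKI against CON (adjusted p = 0.0024) and at 0.28 in ICA against CON (adjusted p = 0.16).

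Both iron importers were higher in CIAKI than in CON. Slc25a37 (mitoferrin-1, the form of red cell precursors) had 11.9, 15.3 and 14.8 CPM in ICA, 22.6, 27.8 and 21.6 CPM in CIAKI, and 14.4, 14.9 and 13.8 CPM in CON kidneys. CIAKI stood above both other groups, which overlapped, with log2 fold changes of 0.69 in CIAKI against CON (SE 0.13, adjusted p = 0.0027) and -0.73 in ICA against CIAKI (adjusted p = 0.0023). The erythroid markers Hbb and Alas2 summed to 69.1 to 427 CPM in ICA, 682 to 846 CPM in CIAKI and 70.3 to 414 CPM in CON kidneys. CON 1, with 401 CPM of Hbb against 78 and 68.6 CPM in the other controls, had 14.4 CPM of Slc25a37, within their range. ICA 1 was lowest of the ICA libraries in both, with 67.5 CPM of Hbb and 11.9 CPM of Slc25a37, and the part of red cell precursors in these values was not tested. Slc25a28 (mitoferrin-2, of most cells) had 41.2, 41.1 and 34 CPM in ICA, 56.3, 50.3 and 35.9 CPM in CIAKI, and 32, 34.3 and 31.9 CPM in CON kidneys. CIAKI 3 was close to the controls, and the log2 fold change was 0.50 (SE 0.15, adjusted p = 0.028). That call was lost without any CON library, CIAKI 1 or CIAKI 2 (adjusted p up to 0.088). Of 9 enzymes of haem and iron-sulfur synthesis, 1 was higher and 3 were lower in CIAKI. Alas1, the first enzyme of haem synthesis in most cells, rose by 1.23 (adjusted p = 0.00014), while the cysteine desulfurase Nfs1 stood at -0.52 (adjusted p = 0.0011) and Ppox, a late enzyme of haem synthesis, at -0.63 (adjusted p = 0.0058).

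The glutathione carrier Slc25a39 and its relative Slc25a40 were not called in any comparison. Slc25a39 stood at 288 ± 17.3 CPM in ICA, 302 ± 9.91 CPM in CIAKI and 280 ± 13.1 CPM in CON kidneys (SD, n = 3 each).

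Of 9 carriers of nucleotides and cofactors, 3 were higher and 2 lower in CIAKI than in CON. Slc25a33, which moves pyrimidine nucleotides, had 13, 13.2 and 13.5 CPM in ICA, 20.9, 23 and 13.7 CPM in CIAKI, and 10.3, 11.4 and 11 CPM in CON kidneys. CIAKI 3 was far below the other CIAKI libraries and barely above ICA. For Slc25a33, the log2 fold change was 0.73 in CIAKI against CON (SE 0.17, adjusted p = 0.0079) and -0.47 in ICA against CIAKI (adjusted p = 0.051), which missed the threshold. The other pyrimidine nucleotide carrier, Slc25a36, stood at -0.17 in CIAKI against CON (adjusted p = 0.43). Slc25a32, known as a carrier of folate or flavin, stood at 0.46 (adjusted p = 0.027), and its call was lost in 5 of 21 alternatives. Slc25a16, linked to coenzyme A, and the NAD carrier Slc25a51 fell by 0.47 and 0.30 (adjusted p = 0.0039 and 0.011). Slc25a17 of peroxisomes (-0.16) and the S-adenosylmethionine carrier Slc25a26 (0.18) were not called.

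Slc25a42, the carrier of coenzyme A, was called in both comparisons of ICA and not in that of CIAKI with CON. It had 63.7, 78.1 and 74.8 CPM in ICA, 31, 35.2 and 50.2 CPM in CIAKI, and 39.4, 38.8 and 32.8 CPM in CON kidneys. ICA libraries were above all others, and CIAKI spanned the CON range. Its log2 fold change was 0.90 in ICA against CIAKI (SE 0.17, adjusted p = 0.0029), 0.95 in ICA against CON (SE 0.17, adjusted p = 0.049) and 0.04 in CIAKI against CON (adjusted p = 0.86). The call in ICA against CON held in 7 of 21 alternatives and was lost, among others, with edgeR, with TMM, upper-quartile or quantile scaling, and without CIAKI 2 or any ICA or CON library (adjusted p up to 0.19).

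Among the uncoupling proteins and their relatives, Ucp2, which lowers the proton gradient or exports carboxylates from the matrix, had 28.5, 30.4 and 23.9 CPM in ICA, 25.7, 29.8 and 29.8 CPM in CIAKI, and 23.3, 16.8 and 18.2 CPM in CON kidneys. Both contrast groups were above CON, the nearest libraries being 23.9 CPM in ICA and 23.3 CPM in CON. Fitted log2 fold changes of Ucp2 were 0.54 in CIAKI against CON (SE 0.14, adjusted p = 0.013), -0.04 in ICA against CIAKI (adjusted p = 0.83) and 0.49 in ICA against CON (SE 0.14, adjusted p = 0.2). Ucp2 is abundant in macrophages, whose 4 markers summed to 61.8 to 85.4 CPM in ICA, 35.6 to 46.5 CPM in CIAKI and 77 to 86.1 CPM in CON kidneys. Of these, Csf1r and Adgre1 were lower in CIAKI than in CON, while Cd68 (0.22) and C1qa (-0.22) did not pass, and the part of macrophages in the Ucp2 values was not tested. Slc25a30, named kidney mitochondrial carrier protein 1, had 173, 268 and 211 CPM in ICA, 72.5, 81 and 113 CPM in CIAKI, and 191, 205 and 161 CPM in CON kidneys. Every CIAKI library was below every other library. Its log2 fold change was -1.07 in CIAKI against CON (SE 0.19, adjusted p = 0.0025) and 1.28 in ICA against CIAKI (SE 0.19, adjusted p = 0.0012). Its relative Slc25a14 stood at 0.19 in CIAKI against CON (adjusted p = 0.39).

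The 6 carriers with a less settled substrate held 2 with large changes. Slc25a34 had 9.48, 11.7 and 11.6 CPM in ICA, 10.8, 14.1 and 15.1 CPM in CIAKI, and 5.22, 3.45 and 3.24 CPM in CON kidneys. ICA and CIAKI overlapped, and both were above CON. The log2 fold change of Slc25a34 was 1.54 in CIAKI against CON (SE 0.19, adjusted p = 0.00035), -0.26 in ICA against CIAKI (adjusted p = 0.3) and 1.28 in ICA against CON (SE 0.19, adjusted p = 0.027). Slc25a45 had 53.1, 57.8 and 50.1 CPM in ICA, 34.2, 24.7 and 31.7 CPM in CIAKI, and 72.7, 58.6 and 70.5 CPM in CON kidneys. The 3 groups did not overlap, and ICA stood between the others. Its log2 fold change was -1.13 in CIAKI against CON (SE 0.13, adjusted p = 0.00027), 0.82 in ICA against CIAKI (SE 0.13, adjusted p = 0.0015) and -0.32 in ICA against CON (adjusted p = 0.43). Slc25a48 had 20.1 ± 2.19 CPM in ICA and 11.4 ± 2.51 CPM in CIAKI kidneys (SD, n = 3 each). CON kidneys had 15.3 ± 3 CPM and overlapped with both. On the log2 scale, ICA against CIAKI stood at 0.78 (adjusted p = 0.0096) and CIAKI against CON at -0.40 (adjusted p = 0.11). ICA against CON was not called (0.38, adjusted p = 0.54). Slc25a46, a protein of the outer membrane with a part in mitochondrial fission, Slc25a43 and Slc25a35 were not called in any comparison of the main fit. Slc25a35 stood at -0.47 in CIAKI against CON (adjusted p = 0.06) and was called lower in 8 of 21 alternatives.

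**Figure D3:**
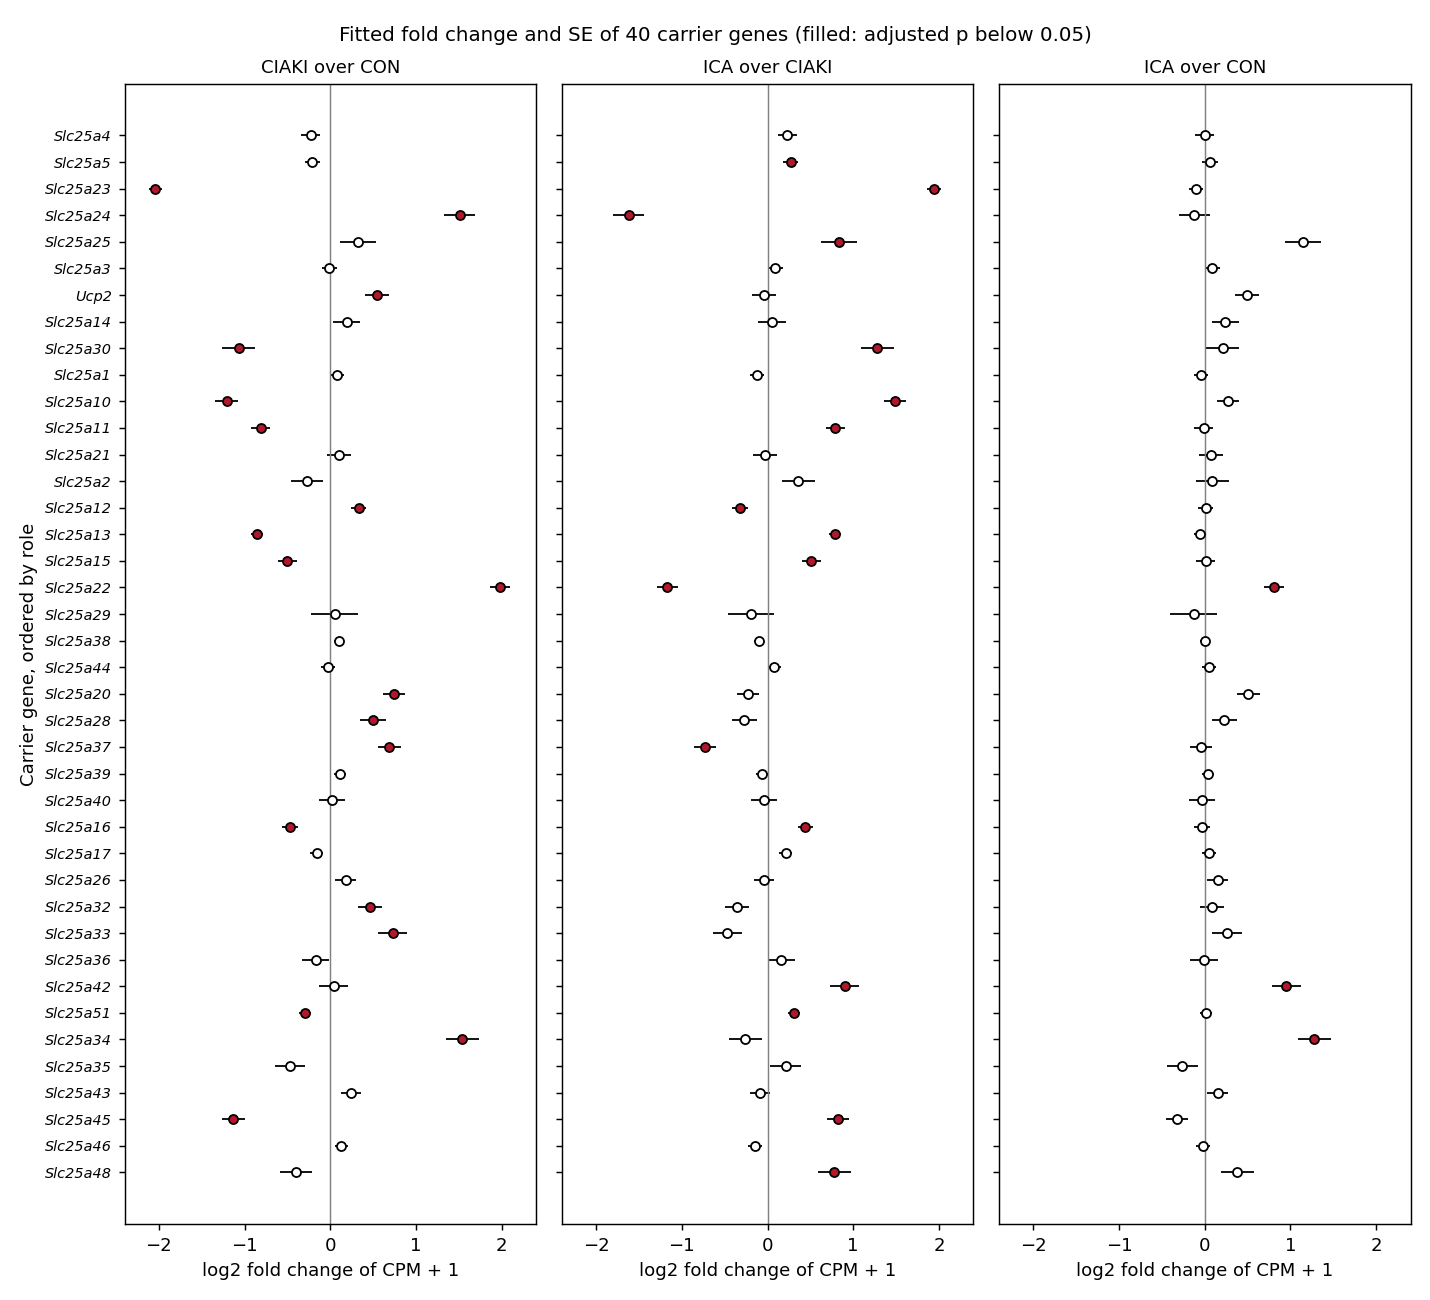
Points are fitted log2 fold changes of CPM + 1 for 40 of the 41 carrier genes, with lines for the SE, and filled points passed an adjusted p below 0.05. CIAKI over CON runs between -2.04 (Slc25a23) and 1.98 (Slc25a22), and 3 points are filled in ICA over CON.

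In ICA against CIAKI kidneys, 13 carriers were higher, 5 lower and 23 not called. Of all features, 19.2% were called higher and 20.2% lower in that comparison, and the carriers had a median log2 fold change of 0.05 against 0.02. Called changes of at least 2-fold were found for 3 higher carriers (Slc25a23, Slc25a10 and Slc25a30), against 5.39% of features, and for 2 lower ones (Slc25a24 and Slc25a22), against 3.04%. Libraries of ICA and CIAKI did not overlap for 22 of 41 carriers, against 50.7% of all features. The CIAKI libraries enter this comparison and that of CIAKI with CON with opposite sign, so the values of each are given side by side and not as independent results. Without ICA 3, the count of lower carriers was 3.

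In ICA against CON kidneys, 3 carriers were higher (Slc25a34, Slc25a42 and Slc25a22) and 38 were not called, where 0.4% of all features were called higher, 0.227% lower and 0.628% in either direction. By limma no carrier was lower, with 1 (Slc25a45) at an unadjusted p below 0.05, and edgeR and DESeq2 on recovered reads also called 0 lower. The 3 calls rest on adjusted p-values of 0.027 to 0.049, and all 3 were lost without CON 2, CON 3, ICA 2 or ICA 3, while 1 was left without CON 1. The direction of each stayed the same in all 21 alternatives. The 3 ICA libraries did not overlap with the 3 CON libraries for 11 of the 41 carriers, against 19.3% of all features. For CIAKI and CON this number was 25 of 41, against 53.4%.

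Ratios of related pairs within a library were compared as well. The exact permutation test of 3 against 3 libraries cannot give a p below 0.1. No pair could therefore be called by it, whatever the size of its difference. Between CIAKI and CON, the differences were 1.26 for Slc25a14 to Slc25a30, 0.90 for Slc25a33 to Slc25a36 and -0.41 for Slc25a10 to Slc25a11. Each had an exact permutation p of 0.1, and CIAKI and CON libraries did not overlap in any of these ratios. The ratios of Slc25a4 to Slc25a5, Slc25a39 to Slc25a40 and Slc25a37 to Slc25a28 differed by -0.02, 0.09 and 0.19, with an exact permutation p of 0.7, 0.6 and 0.4. The 30 tests of pairs and comparisons had adjusted values of at least 0.18 by Benjamini-Hochberg, which cannot go below the unadjusted 0.1.

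**Figure D4:**
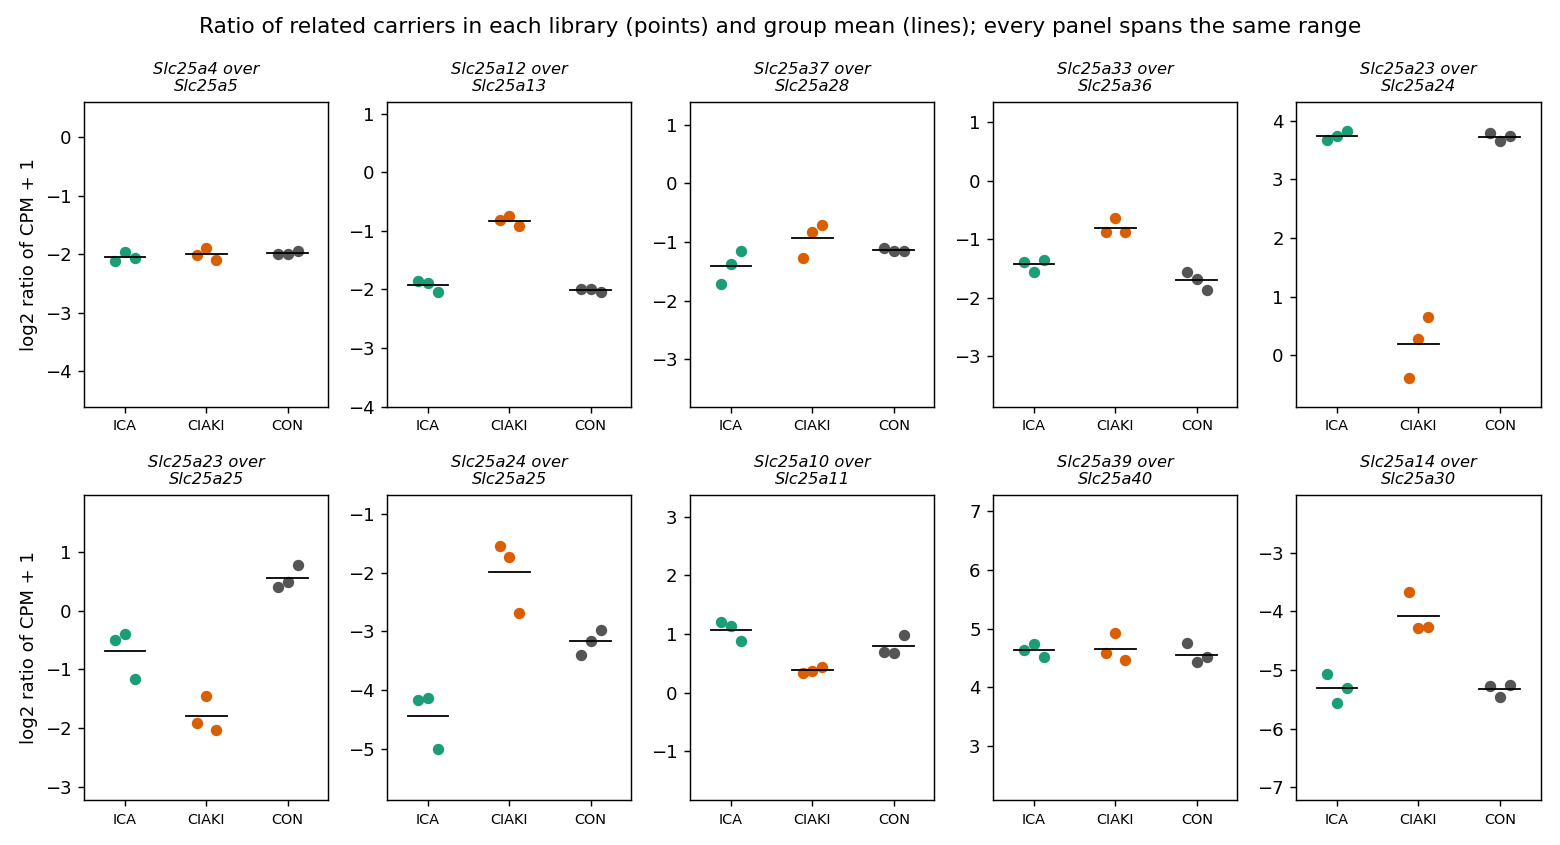
Points are log2 ratios of CPM + 1 of related carriers within a library, by group (ICA, CIAKI, CON), lines are group means, and every panel spans the same number of log2 units. Slc25a23 over Slc25a24 lies between -0.38 and 0.66 in CIAKI and at 3.65 or above in all other libraries, while Slc25a4 over Slc25a5 stays between -2.11 and -1.89.

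Partners of the carriers were counted in lists chosen by function, and each count stands beside the 20.8% of all features called higher and 20.5% called lower in CIAKI against CON. Several lists were near those shares. Of 6 ATP synthase subunits and regulators, 5 were lower and 1 was higher in CIAKI than in CON (median -0.39). Atp5f1b, a catalytic subunit, stood at -0.54, Atp5f1c at -0.43 and Atp5po at -0.35 (adjusted p = 0.0054, 0.0016 and 0.0015). Of 12 outer membrane channel and import genes, 6 were higher, 1 was lower and 5 were not called (median 0.24), with the import receptors Tomm70 at 0.84 (adjusted p = 0.00046) and Tomm22 at 0.53 (adjusted p = 0.00032). All 6 higher genes were import genes, and the 1 lower gene was a channel gene. The receptor Tomm70 takes up carrier precursors from the cytosol. It had 57.4, 61.7 and 59.9 CPM in ICA, 127, 102 and 97.6 CPM in CIAKI, and 54.1, 62.3 and 64.3 CPM in CON kidneys, so that CIAKI lay above all others.

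Of 7 pyruvate carrier and sideroflexin genes, 2 were higher and 4 lower in CIAKI (median -0.46). Both pyruvate carrier genes were among the 4 lower ones. The serine transporter Sfxn1 rose by 0.78 (adjusted p = 0.0012), and Sfxn3 and Sfxn2 stood at 0.92 and -1.06 (adjusted p = 0.0017 and 0.00033). Of 8 genes tested of the calcium uniporter and of calcium exchange, 1 was higher and 5 lower (median -0.27), among them Micu3 at -0.76, Smdt1 at -0.42 and Letm1 at -0.28 (adjusted p = 0.0023, 0.0016 and 0.0041). Among relatives of the family with other names, Mtch2 rose by 0.23 (adjusted p = 0.013) and Mtch1 stood at -0.11 (adjusted p = 0.31).

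Of 6 shuttle enzymes that work with Slc25a11, Slc25a12 and Slc25a13 or with glycerophosphate, 2 were higher and 1 was lower in CIAKI. The cytosolic malate dehydrogenase gene Mdh1 fell by 0.87 (adjusted p = 4.1e-05), while the aspartate aminotransferase genes Got1 and Got2 rose by 1.23 and 0.47 (adjusted p = 0.002 and 0.00075). Mdh1 had 663, 675 and 664 CPM in ICA, 395, 416 and 411 CPM in CIAKI, and 747, 742 and 746 CPM in CON kidneys, with ICA between the others. Of 7 glutamate, glutamine and ornithine enzymes tested, 2 were higher and 3 lower. Oat, which uses ornithine, and Gatm, the first enzyme of creatine synthesis, stood at -0.99 and -2.81 (adjusted p = 0.0025 and 0.0007).

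Of 8 tricarboxylate and citrate enzymes tested, 1 was higher (Idh3a, 0.36, adjusted p = 0.0013) and 3 were lower, with Sucla2 at -0.30 (adjusted p = 0.0063). Glycine and one-carbon enzymes were split, 2 higher and 2 lower of 6, with Mthfd1l at 2.05 and Mthfd2 at 1.54 (adjusted p = 0.00019 and 0.00094) and Gcsh at -0.45 (adjusted p = 0.0018). Of 8 genes of nucleotide, NAD and coenzyme A metabolism, 2 were higher and 3 lower. Flad1, which makes FAD, rose by 0.44 (adjusted p = 0.0039). In ICA against CON, 0 genes of these lists were called other than Cpt1a and Cpt2.

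The authors' deposited table of selected mRNAs, which covers ICA and CIAKI libraries, holds 12 of the carriers. It gives FPKM, which is scaled to transcript length as well as to depth, so levels of these 12 could be set side by side. In ICA kidneys, Slc25a10 was highest at 159 ± 12.8 FPKM, ahead of Slc25a11 at 120 ± 7.03, and their libraries did not overlap (SD, n = 3 each). Next came Slc25a30 at 94.6 ± 20.2, Slc25a23 at 74.6 ± 1.53, Slc25a13 at 65 ± 3.46 and Slc25a25 at 56.1 ± 16.7 FPKM. Of these neighbours, Slc25a30 overlapped with both Slc25a11 and Slc25a23 in their libraries, and Slc25a25 with both Slc25a13 and Slc25a23. Far below were Slc25a42, Slc25a48, Slc25a45, Slc25a37, Slc25a22 and Slc25a24, at 20.2 to 2.02 FPKM. In CIAKI kidneys, Slc25a11 (67.8 ± 10.9 FPKM) and Slc25a10 (55.9 ± 10.3 FPKM) overlapped, and Slc25a23 stood at 18.8 ± 2.17 FPKM, below Slc25a25 at 30.4 ± 7.13 FPKM. These 12 are the members with an absolute log2 fold change of at least 0.73 between ICA and CIAKI, and the others reached at most 0.51.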

How the data were processed

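RNA from kidneys of 9 rats in 3 groups of 3 was sequenced after library preparation with an Illumina TruSeq kit from total RNA, per the labels. The submitters' processing notes name Bowtie 0.12.2 and mm8, which is a build of the mouse, although the features carry rat Ensembl identifiers, and the reference used is not settled. For the counter, the strand setting and the annotation, the sources used here name none, and reads of genes that overlap may be mixed.

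The authors deposited the gene table in CPM, and dividing by the value of 1 read gave whole reads (tolerance 0.1) for 100% of the values. In the authors' table of 3975 selected mRNAs, all 23850 deposited counts were the same as these reads. Deposited FPKM values of those mRNAs were used as they stand.

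Since CPM are not counts, limma 3.58.1 with an intensity trend was fitted to log2(CPM + 1) over the 16731 features that reached 1 CPM in 3 or more libraries, with group as the factor and all 9 libraries. Tests were two-sided, adjusted by Benjamini-Hochberg over all features, and called at an adjusted p below 0.05. As alternatives, edgeR 4.0.16 called 76 features on recovered reads in ICA against CON, and DESeq2 1.42.0 called 524. Other alternatives varied the pseudocount, filter, scaling, features, samples and replicates.

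Values in every library are given for the 14 called members with the largest change in CIAKI against CON, members called in ICA against CON, and Slc25a4, Slc25a5, Slc25a3 and Ucp2. Up to 3 genes per partner list with the smallest p are named. Values of 1 member and of some partner genes are not reported here, but counts and sums include them. Members, lists and tests were chosen with earlier results of these data known.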

Additional observations from a re-analysis of the deposited data

How the results depend on the processing

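Of 21 alternatives, none reversed a called carrier, and all 20, 18 and 3 calls kept their direction in CIAKI against CON, ICA against CIAKI and ICA against CON. The calls of 16 of 20 and 15 of 18 carriers held in every alternative in the first pair of comparisons, and 0 of 3 did so in ICA against CON. Among those lost somewhere were Slc25a12, Slc25a28 and Slc25a32 in CIAKI against CON and Slc25a12 and Slc25a5 in ICA against CIAKI. In ICA against CON, the count of higher carriers was 0 without a filter on low values, 0 with a replicate block and 5 with DESeq2, against 3, and the cause was not tested. The carriers that DESeq2 added were Slc25a20 and Slc25a25. Leaving out 1 library gave 7 to 11 higher and 9 to 11 lower carriers in CIAKI against CON, and 12 to 14 higher and 3 to 7 lower in ICA against CIAKI. In ICA against CON it gave 0 to 4 higher and 0 lower.

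Same-numbered libraries of different groups had correlations of -0.0349 to 0.0813 in their deviations from the group means. For differently numbered libraries, the correlations were -0.102 to 0.0364. All were small, the highest came from same-numbered libraries, and whether the numbers pair the libraries was not tested. With the replicate block, 10 carriers were higher and 9 lower in CIAKI against CON, and 13 higher and 4 lower in ICA against CIAKI. Scaling by upper quartiles moved the median of all features to -0.07 in CIAKI against CON, and under it Slc25a4, Slc25a5, Slc25a17 and Slc25a35 were called lower there. Slc25a35 was called lower there in 8 of 21 alternatives, among them TMM scaling (adjusted p = 0.037), edgeR (0.041) and DESeq2 (0.017). For Slc25a4, Slc25a5 and Slc25a17 this number was 2, 3 and 2 of 21. Adjusted p-values rest on 3 rats per group in every comparison. By limma, 1704 features had an unadjusted p below 0.05 in ICA against CON, against 8366 in CIAKI against CON. The Benjamini-Hochberg adjustment was thus stricter in ICA against CON. An unadjusted p of 0.00036 became 0.054 for Slc25a25 in ICA against CON, and 0.0025 for Slc25a30 in CIAKI against CON. A carrier not called in ICA against CON is therefore not shown to be unchanged.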

Other observations

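The 7 symbols of the family below the filter had low values. Slc25a47, known as a liver carrier, had 0.0766, 0 and 0 CPM in ICA, 0.253, 0.654 and 0.559 CPM in CIAKI, and 0 CPM in all 3 CON kidneys. A count of 0 in a CON library allows up to 0.0396 to 0.0431 CPM (3 reads, counting error only), so all CIAKI libraries lay above that limit. Slc25a27, an uncoupling protein relative best known from brain, had 0.506, 0.609 and 0.94 CPM in ICA, 1.31, 1.19 and 0.839 CPM in CIAKI, and 0.343, 0.574 and 0.595 CPM in CON kidneys. Its CIAKI libraries all lay above the CON libraries, while ICA overlapped with both, and it was not tested in the main fit. Slc25a31, the testis form of the ADP and ATP exchanger, and Slc25a54 were at 0 in all 9 libraries. Slc25a18, Slc25a41 and Ucp3 reached at most 0.199, 0.0548 and 0.192 CPM.

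Ucp1, the uncoupling protein of brown fat, stood at 5.67 CPM in CON 1 and at 0.52 CPM or less in the other libraries. CON 1 also held 12.9 CPM of the fat droplet gene Plin1, against 2.11 CPM or less elsewhere. In CON 1, Slc25a34 stood at 5.22 CPM and Ucp2 at 23.3 CPM, against 3.45 and 3.24 CPM and 16.8 and 18.2 CPM in the other controls. These were picked after the values were seen, and the part of fat in them was not tested.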
